A study of Mus musculus with 2 samples.

Results

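Immunity-related GTPases were followed in the ovaries of 8-week-old C57BL/6J mice, in 1 wild-type library and 1 library labelled H19KO, whose allele is given as H19(Δ3). H19 is an imprinted long noncoding RNA, and the study set out to find ovarian genes that depend on it. The members are 10 rows of the count table picked by gene symbol, Iigp1, Igtp, Irgm1, Irgm2, Tgtp1, Tgtp2, Ifi47, Gm12250, Gm12185 and Gm4951, out of 24421 rows, and all 10 had counts in both libraries. They were picked with their knockout to wild-type ratios already known, so the ratios below describe 2 libraries and carry no test. No treatment was given, and the sources used here do not say how many mice gave each RNA sample or at what stage of the oestrous cycle they were.

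The immunity-related GTPases are large GTP-binding proteins that mouse cells make in response to interferons, above all interferon gamma. The effector members gather on the vacuoles in which Toxoplasma and Chlamydia live and disrupt them. The regulators Irgm1, Irgm2 and Igtp have a methionine in place of the usual lysine of the nucleotide-binding loop, sit on the cell's own membranes and keep the effectors inactive there.

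Motifs known from interferon-inducible genes can be looked for in the members' promoters. RefSeq promoter windows (GRCm38.p6, 250 bases before to 50 after the annotated start) matched 8 of the 10 members, those on chromosome 11. They were searched on both strands for the interferon-stimulated response element, read by the Irf factors, as GAAANNGAAA, and for the gamma-activated sequence as TTCNNNGAA. Of the 8 windows 7 held the response element, against 3.44% of all 32851 windows of the same length. The gamma-activated sequence was in 6 of the 8, against 8.30% of all windows. The members are related genes, and some of their windows are alike outside the motifs as well. The 8 windows are therefore not independent, and nothing follows from these shares.

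The stretches holding these motifs are shown because 5 members share them in the same arrangement. Each is written 5′ to 3′ on the gene's own strand, with the letters of either motif in capitals.
Igtp, chr11:58199499-58199543, plus strand: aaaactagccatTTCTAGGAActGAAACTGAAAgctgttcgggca
Irgm2, chr11:58214890-58214934, plus strand: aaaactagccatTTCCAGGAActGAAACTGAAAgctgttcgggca
Tgtp1, chr11:48992302-48992346, minus strand: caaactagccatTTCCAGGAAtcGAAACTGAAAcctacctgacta
Tgtp2, chr11:49064261-49064305, minus strand: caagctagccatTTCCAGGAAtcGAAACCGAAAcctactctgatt
Gm12185, chr11:48927236-48927280, minus strand: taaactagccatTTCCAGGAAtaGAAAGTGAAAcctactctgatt
Irgm1, chr11:48871423-48871462, minus strand: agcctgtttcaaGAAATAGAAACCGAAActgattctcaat
Gm12250, chr11:58183740-58183818, plus strand: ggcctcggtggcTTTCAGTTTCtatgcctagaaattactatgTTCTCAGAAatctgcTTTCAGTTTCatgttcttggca

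In Igtp, Irgm2, Tgtp1, Tgtp2 and Gm12185 the gamma-activated sequence came first and the response element began after a gap of 2 bases. The joined pattern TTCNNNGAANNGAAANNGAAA, written down after these windows had been read, was found on either strand in 5 of the 32851 windows, and these were the same 5 genes. The 5 stretches are alike outside the motifs too, so they are not independent occurrences of the pattern. The pattern contains a match of each single motif. It began 45 bases before the annotated start in Igtp, 75 in Irgm2, 81 in Tgtp2, 86 in Gm12185 and 88 in Tgtp1. Irgm1 held 2 overlapping response elements at 24 and 30 bases before its start and no gamma-activated sequence in the window. Gm12250, the Irgb10 gene, held its motifs apart: response elements on the opposite strand at 46 and 91 bases before the start and a gamma-activated sequence at 61. The window of Ifi47 held neither set of letters. These are matches of letters and not measured binding.

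**Figure D1:**
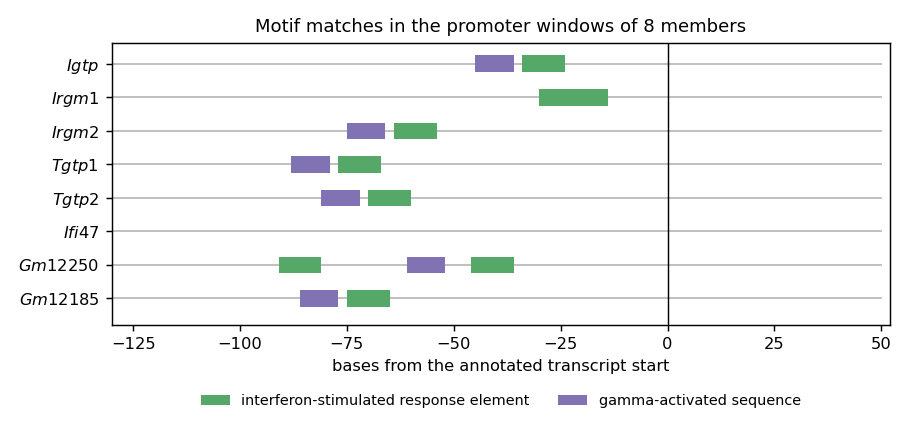
Position of each motif match (coloured blocks, drawn to length) in the promoter windows of 8 members, in bases from the RefSeq transcript start (vertical line). In 5 members the gamma-activated sequence lies 2 bases before the response element, and the pair begins between 45 and 88 bases before the start.

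The libraries were of nearly equal depth, with totals of 23335131 wild-type and 23041225 knockout counts. H19 had 672 counts in the wild-type library and 0 in the knockout library, where a count of 0 allows up to 3, so H19 was at least 223-fold lower there. Levels are given in CPM, counts scaled to library size, here by TMM. Ratios are log2 knockout to wild type, of scaled counts with 0.5 added, and the bracketed range after each is its 95% exact binomial interval. These intervals cover counting error only, since neither genotype had a second library by which a difference could be checked or tested. In whole ovaries, more cells of a type and more RNA per cell cannot be told apart.

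All 10 members had higher levels in the knockout library, and each interval lay wholly above 2-fold. Among all genes, 13928 averaged 1 CPM or more, and 0.610% of them did so (85 genes). The members were picked on this contrast, so nothing follows from that count. Their median log2 ratio was 2.47, with a range of 1.33 to 3.09, where the median over all measured genes was -0.01 and the central 95% of genes lay between -0.67 and 0.79. Summed over the family there were 3849 wild-type and 18834 knockout counts, 165.5 CPM (160.3 to 170.8, exact Poisson interval) and 814.5 CPM (802.9 to 826.2). The family's transcripts were thus 4.92-fold more abundant in the knockout library (4.75 to 5.10). Leaving out Iigp1, the most abundant row there, the sum was 3.94-fold higher (3.78 to 4.10).

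The regulators spanned log2 ratios of 1.33 to 2.53. Irgm1, which acts on lysosomes, mitochondria and the Golgi, went from 997 wild-type to 2497 knockout counts, with a log2 ratio of 1.33 (1.23 to 1.44). Its ratio was the lowest of the 10. Irgm2, a Golgi-associated regulator, had 908 and 3256 counts, or 1.85 (1.74 to 1.96). Igtp, also named Irgm3, sits on the endoplasmic reticulum and lipid droplets and had 296 and 1705 counts, or 2.53 (2.36 to 2.72). The intervals of these 3 regulators did not overlap one another. Their summed level was 94.7 CPM in wild-type and 322.5 CPM in knockout ovary, 3.41-fold higher (3.25 to 3.57).

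The effectors, summed, differed by more than the regulators. Iigp1, also named Irga6, is the best studied effector on the Toxoplasma vacuole. Its counts were 872 and 7179, wild type first, which is 8.27-fold, or 3.05 on the log2 scale (2.95 to 3.15). Gm12250 encodes Irgb10, which acts on bacterial membranes together with guanylate-binding proteins, and had 70 and 597 counts, or 3.09 (2.74 to 3.48). The intervals of Iigp1 and Gm12250 overlap, so at this depth their ratios could not be ordered.

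Tgtp1 and Tgtp2, the paired Irgb6 genes, had 104 and 554 counts and 295 and 1878 counts. Their log2 ratios were 2.42 (2.12 to 2.74) and 2.68 (2.5 to 2.86), with overlapping intervals. Translated from their annotated coding sequences, both proteins have 415 residues and are 100% identical, so the split of reads between the 2 rows is uncertain. Summed, they had 399 and 2432 counts, a 6.12-fold ratio (5.51 to 6.83). Ifi47, the Irgd gene, had 131 and 496 counts, or 1.92 (1.65 to 2.22), the lowest ratio among the effectors. Its interval did not overlap those of Iigp1, Gm12250 or Tgtp2. The 5 effector rows together held 63.3 CPM against 462.9 CPM in the knockout library, a 7.31-fold ratio (6.92 to 7.73), whose interval lies above that of the regulators. Without Iigp1 the other effectors summed to a 5.90-fold ratio (5.42 to 6.45).

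The last 2 members have only Gm names in the table. Gm4951, which RefSeq also lists as Ifgga2, had 147 and 478 counts, or 1.71 (1.44 to 1.99). Its protein is 77.3% identical to that of Iigp1, its neighbour on chromosome 18, over 414 aligned positions, yet the intervals of the pair did not overlap. Gm12185, also named Irgb2b1, encodes a protein of 835 residues, about as long as a pair of its relatives, which have 406 to 423. It had 29 and 194 counts, or 2.73 (2.18 to 3.37), the fewest counts and the widest interval of the 10 members.

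**Figure D2:**
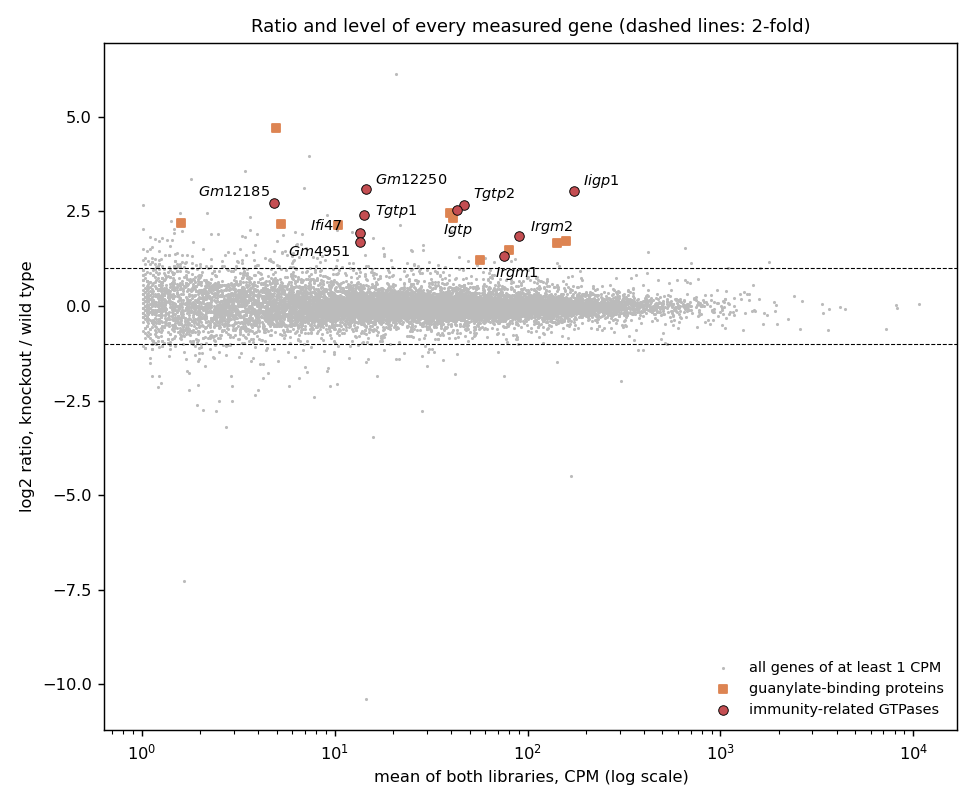
Each point is 1 gene of at least 1 CPM: its mean level in CPM (log scale) against its log2 knockout to wild-type ratio, with immunity-related GTPases in red and guanylate-binding proteins in orange. All 10 members lie above the upper 2-fold line, from 1.33 for Irgm1 to 3.09 for Gm12250, with mean levels from 4.82 CPM for Gm12185 to 174 CPM for Iigp1.

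Compared per length of exon, the order of the members was not the same in the 2 libraries. In the wild type Irgm2 was highest at 10.6 CPM per kilobase (9.91 to 11.3). Irgm1 was next at 7.38 (6.93 to 7.85), then Iigp1 at 6.44 (6.02 to 6.88) and Igtp at 6.30 (5.60 to 7.06), and the interval of Igtp overlapped those of both Irgm1 and Iigp1. Tgtp2 lay at 4.32 CPM per kilobase. Gm4951, Gm12250 and Ifi47 lay between 2.28 and 2.39 and were not apart from one another. Tgtp1 at 1.40 and Gm12185 at 0.223 were lowest.

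In the knockout library Iigp1 was highest at 53.3 CPM per kilobase (52.1 to 54.6). Irgm2 at 38.2 and Igtp at 36.5 followed with overlapping intervals, and then Tgtp2 at 27.6. Gm12250 at 20.3 and Irgm1 at 18.6 overlapped, as did Ifi47 at 8.67, Gm4951 at 7.82 and Tgtp1 at 7.48, each with the next. Gm12185 was again lowest at 1.5. Irgm1 was in the second place in the wild type and the sixth in the knockout, or the fifth per kilobase of the longest transcript. The place of Iigp1 in the wild type depended on the length used: per kilobase of the longest transcript, 3.12 kb in place of 5.82 kb of exon, it headed the wild type too, at 12.0 CPM per kilobase, with an interval overlapping that of Irgm1 at 11.2. The annotation the authors counted on is not given in the sources used here, and Gm12250 is annotated in GENCODE M21 as a processed pseudogene of 1.27 kb, whereas RefSeq lists it as protein coding.

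**Figure D3:**
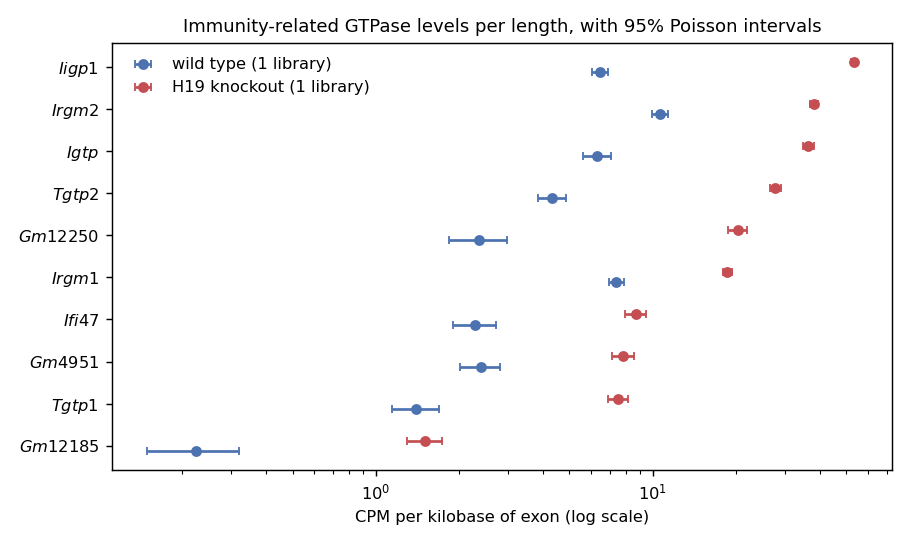
Level of each member in CPM per kilobase of exon (log scale) in the wild-type (blue) and knockout (red) library, 1 library each, with exact 95% Poisson intervals. Irgm2 is highest in the wild type at 10.6 and Iigp1 in the knockout at 53.3, and for every member the red point lies to the right of the blue one with no overlap of intervals.

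The make-up of the family followed from these unequal ratios. Iigp1 held 22.7% of the family's counts in the wild type (21.3% to 24.0%, exact Clopper-Pearson) and 38.1% in the knockout (37.4% to 38.8%). Irgm1 held 25.9% (24.5% to 27.3%) and 13.3% (12.8% to 13.8%), and Irgm2 23.6% (22.3% to 24.96%) and 17.3% (16.8% to 17.8%). The 3 regulators together held 57.2% of the wild-type and 39.6% of the knockout counts, and the 5 effectors 38.2% and 56.8%. Regulators were thus the larger part in the wild-type library and effectors in the knockout library. The effector part is mostly Iigp1: the other 4 effectors held 15.6% of the wild-type and 18.7% of the knockout counts, less than the regulators in both. These shares are of counts not divided by length.

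**Figure D4:**
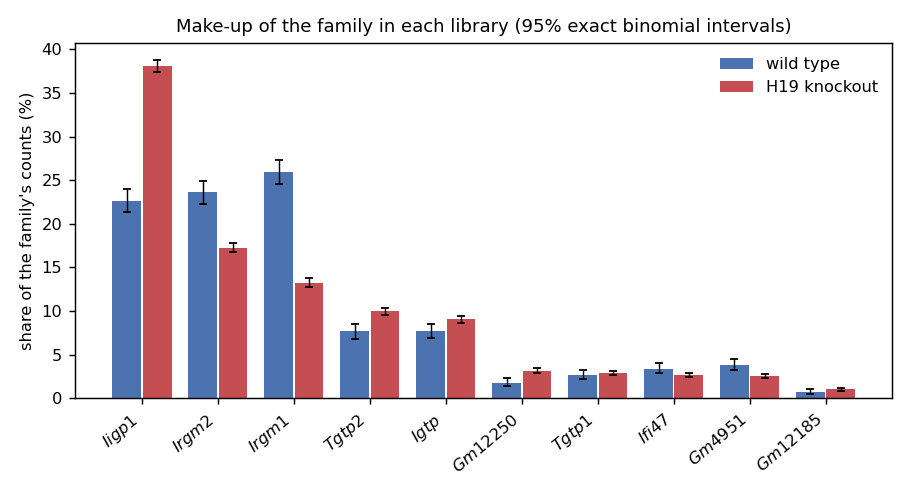
Share of the family's counts taken by each member, in percent, in the wild-type (blue, 3849 counts) and knockout (red, 18834 counts) library, with 95% exact binomial intervals. Iigp1 goes from 22.7% to 38.1% and Irgm1 from 25.9% to 13.3%.

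On the mm10 build the members lie in 3 clusters, named here with GENCODE M21 positions. Irgm1, Gm12185, Tgtp1, Tgtp2 and Ifi47 span 235 kb of chromosome 11, from 48861968 to 49096974. Gm12250, Igtp and Irgm2 span 35.0 kb of the same chromosome, from 58187739 to 58222782. Gm4951 and Iigp1 span 181 kb of chromosome 18, from 60212080 to 60392634. The 8 members on chromosome 11 summed to a 3.97-fold ratio (3.81 to 4.14) and the 2 on chromosome 18 to a 7.55-fold ratio (7.08 to 8.07). The latter sum is mostly Iigp1, with 7179 of its 7657 knockout counts, and the median log2 ratios were 2.47 on chromosome 11 and 2.38 on chromosome 18.

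The genes beside the clusters did not share the members' difference. Of the 30 nearest genes with counts, 5 on each side of each cluster and none of the family, 23 reached 1 CPM. None of these had an interval beyond 2-fold in either direction, where 0.610% of all genes lay above and 0.388% below. Their median log2 ratio was -0.06. Mrpl22, which encodes a mitochondrial ribosomal protein, had 996 and 1045 counts, or 0.08 (-0.05 to 0.20). It ends 8.17 kb before the GENCODE start of Gm12250, and the RefSeq promoter stretch of Gm12250 shown above lies in between. Trim7, an E3 ligase gene 9.76 kb from Irgm1, had 104 and 108 counts, or 0.06 (-0.34 to 0.47). The extremes were Btnl9 at -0.91 (-1.52 to -0.33) and Slc27a6 at 0.73 (0.52 to 0.94), the latter 1599 kb from Gm4951. These 4 neighbours were singled out after their values had been seen. Within the first cluster lie Psme2b, with 46 and 44 counts, and Olfr56, with 20 and 65 counts, or 1.68 (0.97 to 2.51). Olfr56 shares 111 bases of exon with Ifi47 on the same strand, so its counts may hold reads of Ifi47, which was not tested.

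**Figure D5:**
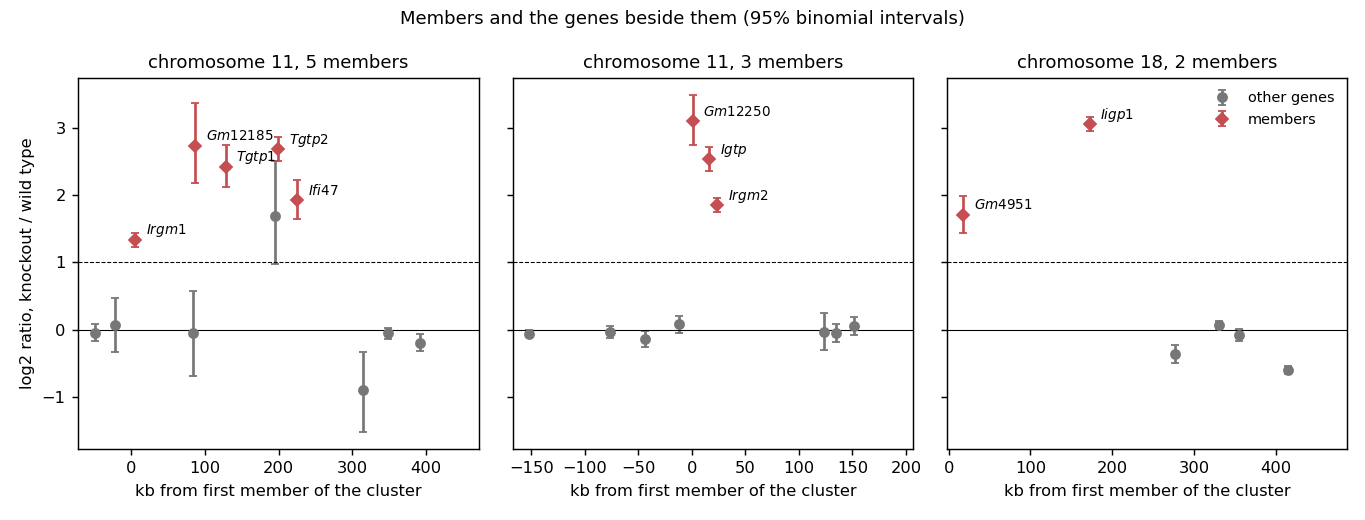
Log2 knockout to wild-type ratio, with 95% exact binomial intervals, of members (red) and other measured genes (grey) against distance in kb from the first member of each of the 3 clusters (Sgcd, Sap30l and the genes left of the chromosome 18 cluster lie farther off and are not drawn). The members lie above the dashed 2-fold line, the grey point at 1.68 is Olfr56, and the genes drawn outside the clusters lie between -0.91 for Btnl9 and 0.08 for Mrpl22.

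Exons are shared within the clusters as well. Igtp and Irgm2 share 162 bases of exon on the same strand, 8.01% of the exon length of Igtp. Gm12185 and Tgtp1 share 223 bases. Adding up the overlapping rows, Igtp and Irgm2 had a log2 ratio of 2.05 (1.96 to 2.14), and Tgtp1, Tgtp2 and Gm12185 one of 2.62 (2.48 to 2.78).

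A further 6 rows belong to the family by protein sequence, with at least 30% identity to a member over at least 60% of their length. Those on chromosome 18 resembled the members. F830016B08Rik, 51.5% identical to Iigp1, had 67 and 355 counts, or 2.40 (2.03 to 2.81), and Gm4841, 49.3% identical to Iigp1, had 15 and 60 counts, or 1.97 (1.17 to 2.93). Both intervals lay above 2-fold.

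The closest relatives of Gm12185 on chromosome 11 did not reach it. Gm5431, 87.7% identical to Gm12185, had 32 and 48 counts, or 0.59 (-0.08 to 1.29), and 9930111J21Rik1, 88.2% identical, had 26 and 32 counts, or 0.30 (-0.48 to 1.11). Their intervals included 0 and lay below that of Gm12185. The near copy 9930111J21Rik2 had 5 and 4 counts, and Irgc1, a family gene known from the testis, had 1 and 0, too few for a comparison. Copies this alike may exchange reads.

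Around the family, the other inducible GTPases were also higher in the knockout library. Of 11 guanylate-binding protein genes 10 averaged 1 CPM or more, and all 10 had an interval above 2-fold, where 0.610% of all genes did. Gbp10 and Gbp2b, at 0.344 and 0.559 CPM in the wild type, reached that mean only through the knockout library. Gbp11, with 8 and 22 counts, did not reach it, and its 1.41 (0.25 to 2.84) was not wholly above 2-fold. The count of 10 thus depends in part on the filter. The 10 had a median log2 ratio of 2.16. All 11 summed to 249.8 CPM in the wild type and 829.6 CPM in the knockout library. Gbp2, Gbp7 and Gbp3, the most abundant, had 1.73 (1.65 to 1.81), 1.68 (1.60 to 1.76) and 1.47 (1.37 to 1.58). Gbp4 had 2.47 and Gbp6 2.34, within the members' range, and Gbp10, with 8 and 220 counts, 4.70 (3.79 to 6.02).

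The interferon ligand genes listed here were at or near 0 in both libraries, and interferon genes outside the list were not looked at. Ifng, the interferon gamma gene, had 1 wild-type and 2 knockout counts. Of 15 ligand and receptor genes 8 had no count in either library, all of them ligands: Ifnb1, Ifna1, Ifna2, Ifna4, Ifne, Ifnk, Ifnl2 and Ifnl3. Here a count of 0 allows up to 3 counts, 0.129 CPM for the wild type and 0.130 CPM for the knockout. The 6 receptor genes that were measured had a median log2 ratio of 0.08. None lay beyond 2-fold, where 0.610% of all genes lay above and 0.388% below. The interval lay above 0 for 3 and across 0 for 3, where 22.2% of all genes lay above 0. The highest was Il10rb at 0.62 (0.53 to 0.72), named after its value had been seen. The gamma receptor subunits Ifngr1 and Ifngr2 had -0.11 (-0.23 to 0.01) and 0.02 (-0.07 to 0.11). The type I receptor subunits Ifnar1 and Ifnar2 had 0.06 (0.01 to 0.12) and 0.33 (0.24 to 0.41).

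Among 19 signalling genes the interval lay above 0 for 11, below for 2 and across 0 for 6, where 22.2% of all genes lay above 0 and 24.0% below. The median was 0.17. Nlrc5, the class I transactivator, lay beyond 2-fold at 1.49 (1.30 to 1.68). The kinase Jak1 had -0.03 (-0.06 to 0.01) and the transcription factor Stat3 -0.08 (-0.14 to -0.02).

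Interferon gamma effector genes gave 13 of 14 measured members above 0 and 1 below, where 22.2% of all genes lay above and 24.0% below. Their median was 0.95, and 5 lay above 2-fold, where 0.610% of all genes did. The 5 were Psmb9 at 2.02, Cd274 at 1.96, Psmb8 at 1.46, Cxcl10 at 1.45 and Tap1 at 1.29. The 3 most abundant, B2m, H2-Ab1 and Cd74, had 1.01 (0.99 to 1.03), 0.74 (0.68 to 0.80) and 0.38 (0.33 to 0.43). The gene below 0 was Nos2, with 906 and 803 counts, or -0.17 (-0.30 to -0.03). Among 20 genes of the type I response, such as the antiviral Ifit, Oas and Mx genes, 15 lay above 0, none below and 5 spanned it. Their median was 0.58, and 2 lay beyond 2-fold, Ifit3 at 1.37 and Ifit3b at 1.43. The lists differ in level and in size and share some genes, so their medians are set side by side and not tested.

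The machinery that conjugates Atg8-type proteins guides these GTPases to membranes. It was listed together with genes linked to the tagging of vacuoles with ubiquitin. None of the 19 measured genes of this list lay beyond 2-fold, where 0.610% of all genes lay above and 0.388% below. Of the 19, 8 had an interval above 0 and 2 below, beside 22.2% and 24.0% of all genes, and the median was 0.06. The highest were Atg10, a conjugating enzyme, at 0.93 (0.61 to 1.28) and the ubiquitin ligase gene Trim21 at 0.82 (0.65 to 1.01), followed by the galectin Lgals3 at 0.51 and Optn at 0.49, named after their values had been seen. The cargo receptors Sqstm1 and Tax1bp1 had -0.00 (-0.04 to 0.04) and -0.00 (-0.05 to 0.04), and Gabarapl1, an Atg8-type protein that recruits the effectors, 0.16 (0.11 to 0.22).

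Leukocyte markers were compared because these cells make interferon gamma and express the family strongly. The table held 22 marker genes. Of these, 10 reached 1 CPM, with the interval above 0 for 5, below for 2 and across 0 for 3, where 22.2% of all genes lay above and 24.0% below. Their median was 0.26, and none lay beyond 2-fold, where 0.610% of all genes lay above and 0.388% below. The summed level of all 22 was 391.7 CPM in wild-type and 485.0 CPM in knockout ovary. Ptprc, the pan-leukocyte marker, had 496 and 605 counts, or 0.29 (0.12 to 0.47). The macrophage genes Lyz2, C1qa and Csf1r had 0.54 (0.48 to 0.61), 0.36 (0.27 to 0.45) and -0.24 (-0.35 to -0.13). Of the T cell and natural killer cell markers Cd4 had 127 and 93 counts, and the others had at most 28 in either library: Cd3e had 16 in each, Cd8a 6 and 14, and Ncr1 12 and 22. No marker in the table was at 0 in both libraries. The part of leukocytes in the family's ratio was not tested.

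Ovarian markers were present as the tissue label states, and 9 of 11 had an interval below 0, where 24.0% of all genes did. Their summed level was 8562 CPM in wild-type and 7688 CPM in knockout ovary. The steroidogenic genes Cyp11a1 and Star had -0.02 (-0.03 to -0.01) and 0.11 (0.09 to 0.13), the granulosa gene Inha had -0.50 (-0.52 to -0.47), and the theca gene Cyp17a1 lay below 2-fold at -1.98 (-2.04 to -1.92). The part of such differences in cell make-up in the family's ratio was not tested.

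Among all other measured genes, the 5 whose log2 ratio lay nearest to the members' median of 2.47 were Dmbt1, Gbp4, Sag, F830016B08Rik and Serpina3n. They differed from it by 0.0024 to 0.113. With 2 libraries this likeness is that of a single ratio. Of the 5, Gbp4 is an interferon-inducible GTPase of the guanylate-binding family and F830016B08Rik a relative of the members; Dmbt1 had 15 and 85 counts, Sag 11 and 62 and the serpin Serpina3n 27 and 140.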

How the data were processed

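Total RNA from whole ovaries was depleted of ribosomal RNA and sequenced with paired ends as stranded libraries, per the labels' protocols, in 2 libraries, 1 wild type and 1 H19 knockout. The authors deposited 1 table of whole-number counts per gene symbol. Per the submitters' processing notes, STAR 2.5.0a, Cufflinks 2.2.1, DESeq2 1.0.0 and mm10 were used. What each did is not stated, and the counting tool, annotation and strandedness used remain not given in the sources used here.

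Counts were scaled by TMM (edgeR 4.0.16, R 4.3.3). Ratios carry Clopper-Pearson intervals of the conditional binomial, levels exact Poisson intervals, both at 95%. A gene was counted as beyond 2-fold if it averaged 1 CPM or more and the full interval lay past that limit, a rule of size and not a test. PCR reads without molecular identifiers are not independent molecules, so intervals and floors cover counting error only. Of 24421 rows, 23350 matched a GENCODE M21 symbol. No protein table was used: translated GENCODE coding sequences were aligned with BLAST 2.17.0. On Poisson counts simulated for this comparison (13926 genes run), 92.0% of genes raised 3-fold and 88.0% of genes lowered 3-fold were recovered. All genes raised or lowered 6-fold were recovered. Such counts hold no variation between animals, so this recovery covers counting error only.

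The members and gene lists were chosen with earlier results of these data known. Named genes are all members, H19, the 3 most abundant and up to 8 genes beyond 2-fold of each list, the 5 nearest ratios and all protein relatives; others are named as single values within a list. A result that falls under these rules is left out here. Alternatives were 3 other scalings, 5 added to counts, other CPM minima and fold limits, the point ratio, summed rows, the mean and transcript length. Scripts used Python 3.11.15, scipy 1.17.1 and pandas 2.3.3.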

Additional observations from a re-analysis of the deposited data

How the results depend on the processing

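Under total count scaling, median-of-ratios scaling and library sizes without the 10 most abundant genes, all 10 members stayed beyond 2-fold, and the summed log2 ratio lay between 2.29 and 2.31. With a 4-fold limit 6 members remained, Iigp1, Igtp, Tgtp1, Tgtp2, Gm12250 and Gm12185, against 16 genes in all (0.115% of those measured), as a stricter limit must give fewer. With a minimum of 5 CPM 9 members were left, since Gm12185 fell out. The median log2 ratio of the members moved to 2.05 when overlapping or near-identical rows were summed first, which leaves 1 value for Igtp with Irgm2, 2.05 in place of 2.53 and 1.85, and 1 for Tgtp1, Tgtp2 and Gm12185, 2.62. Its other alternatives gave 2.33 to 2.48. Of 157 values under alternatives 150 stayed near the value first given. Near means inside its interval, for medians between the medians of the interval bounds, and for counts within 1.5 times it. Part of the 150 could not move. With all 10 members beyond 2-fold, dropping the CPM minimum, the 1.5-fold limit and the point ratio could only give 10 again. The members' median without a CPM minimum was likewise fixed. None of the log2 ratios of single members changed sign. No flanking gene passed 2-fold under any scaling. No paired analysis was possible because there was only 1 library of each genotype, so no replicate could be left out either. Depth limits Gm12185 most, with 29 counts in the wild type.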
